A study of Mus musculus with 12 samples.

Results

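The response of mouse astrocytes to lipopolysaccharide (LPS) and interferon-gamma was described from 2 of 12 Illumina bead arrays, a non-activated and an activated control, over every gene detected on at least 1 of the 2. That rule gave 7659 of the 8128 named genes that were detected on any of the 12 arrays. The series was made to find how hit compounds act on activated astrocytes, and each of its 12 groups is a single array. RNA came from cultured cells, so fewer cells of a type and less RNA per cell cannot be told apart.

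All groups shared the origin of the cells: neural stem cells labelled Rosa25/OG2, turned into astrocytes with 10% fetal calf serum over 4 days, replated on Matrigel and matured for 14 days. The non-activated control was a 4 h culture with neither stimuli nor compound. The activated control was a 4 h culture with 1 µg/ml of LPS and 10 ng/ml of interferon-gamma and no compound. The other 10 arrays came from cells given the same stimuli and then 1 compound each for 4 h and are known by code names only (E4 to E33). The time between stimuli and compound is not stated, so the length of stimulation may differ from that of the activated control. They serve below only to show whether a change lies on the same side of the non-activated control. All of them are set against that same single array, so any deviation of it enters every comparison. The line is 1 line of cells, and how many cultures went into a sample is not stated, nor whether the non-activated cells had the change of medium described for treatment.

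Astrocytes are glial cells that take up transmitters, feed neurons and answer infection. LPS is a bacterial cell wall component that Toll-like receptor 4 senses together with its partners Cd14 and Ly96; the adaptor Myd88 then leads to NF-kB and to MAP kinases that act on AP-1 factors. Interferon-gamma binds the receptor chains Ifngr1 and Ifngr2 and acts through STAT factors, which bind the so-called GAS sequence and induce interferon regulatory factors.

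Promoters of genes from both arms are shown because the rest of the text describes receptors and regulators that were higher after activation. The sequences are RefSeq windows of assembly GRCm38.p6, from 250 bases before to 50 bases after an annotated gene start, read along the gene from 5′ to 3′. Capitals mark matches, on either strand, to the GAS letters TTCNNNGAA, to the interferon-stimulated response element core GAAANNGAA or to the NF-kB letters GGGANTTTC. Irf8 is an interferon regulatory factor, Nod1 a sensor of bacterial cell wall fragments, Myd88 the Toll-like receptor adaptor and Nfkbia the inhibitor of NF-kB.
Irf8 (chr8:120736108-120736407, plus strand): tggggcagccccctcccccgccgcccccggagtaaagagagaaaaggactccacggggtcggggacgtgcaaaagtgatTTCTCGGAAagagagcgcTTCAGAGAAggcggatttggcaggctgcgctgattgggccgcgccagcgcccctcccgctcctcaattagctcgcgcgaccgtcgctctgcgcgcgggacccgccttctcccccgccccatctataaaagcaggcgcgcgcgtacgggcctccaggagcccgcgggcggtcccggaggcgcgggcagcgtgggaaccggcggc
Nod1 (chr6:54971612-54971911, minus strand): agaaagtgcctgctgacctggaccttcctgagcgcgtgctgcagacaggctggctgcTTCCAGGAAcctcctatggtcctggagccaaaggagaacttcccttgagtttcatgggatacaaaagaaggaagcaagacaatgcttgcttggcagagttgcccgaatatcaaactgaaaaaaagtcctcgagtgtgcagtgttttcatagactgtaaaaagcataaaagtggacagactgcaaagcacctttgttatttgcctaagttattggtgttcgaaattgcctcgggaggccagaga
Myd88 (chr9:119339969-119340268, minus strand): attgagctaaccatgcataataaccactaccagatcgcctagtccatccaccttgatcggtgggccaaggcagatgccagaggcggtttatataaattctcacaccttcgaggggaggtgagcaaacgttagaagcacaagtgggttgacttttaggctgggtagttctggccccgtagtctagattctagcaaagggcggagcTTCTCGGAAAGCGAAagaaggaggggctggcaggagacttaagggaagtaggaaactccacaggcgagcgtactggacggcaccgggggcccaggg
Nfkbia (chr12:55492598-55492897, minus strand): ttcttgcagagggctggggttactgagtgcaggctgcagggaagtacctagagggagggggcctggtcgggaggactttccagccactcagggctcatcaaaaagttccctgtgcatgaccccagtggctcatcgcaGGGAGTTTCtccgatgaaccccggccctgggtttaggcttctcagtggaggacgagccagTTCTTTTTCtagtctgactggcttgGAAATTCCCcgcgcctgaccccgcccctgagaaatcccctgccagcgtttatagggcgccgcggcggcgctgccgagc

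The Irf8 window held 2 GAS matches, starting at -171 and -153 relative to the gene start, and another annotated Irf8 start had none of the 3 motifs. In the Nod1 window a GAS match began at -193, and the window of another Nod1 start held none. In the Myd88 window a GAS match and a response element match shared 3 bases. The Nfkbia window held 2 NF-kB matches, 1 on each strand, and 1 response element match. Among genes that were 2-fold higher, 192 of 243 had 259 windows in the table, and 133 of the 162 lower genes had 192 windows. A GAS match was found in 11.6% of the windows of higher genes, 6.77% of those of lower genes and 6.92% of all 8190 windows of measured genes. For the response element core the shares were 14.3%, 4.69% and 6.79%, and for the NF-kB letters 3.47%, 1.04% and 0.916%. The AP-1 letters TGANTCA stood in 9.65%, 5.73% and 5.13% of the windows. The cyclic AMP element TGACGTCA was in 3.47%, 1.56% and 3.15%, and the E-box CACGTG, a site of clock factors, was in 9.27%, 8.85% and 9.99%. Both strands were searched, a window with overlapping matches counts for each motif, and windows of 1 gene can overlap. These are letter matches only, with no test.

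Values are log2 intensities after background correction and quantile normalisation, and a change of at least 2-fold in either direction is a call. Each group being 1 array, there are no replicates, so no error, standard error or p-value can be given, and each fold compares 2 arrays. Among all pairs of activated arrays, the activated control and E5 were closest, with a standard deviation of 0.20 log2 units over genes. The non-activated control detected 7471 named genes and the activated control 7181, with lowest detected values of 5.37 and 5.52 log2 units. A gene not detected on an array was raised to that lowest value, and its fold is then written as "at least". Compound arrays are given as normalised, and a value under the array's lowest detected value (5.99 with E29, 5.41 to 5.59 with the others) was not detected and has no level.

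Of the 7659 measured genes, 405 differed 2-fold, which is 5.29%. Of these, 243 were higher in the activated control (3.17% of the measured genes) and 162 were lower (2.12%). Without background correction the split was 132 higher to 50 lower (72.5% higher), and after scaling to a common median it was 229 to 219 (51.1% higher). The median change of all measured genes was -0.03, and 4574 of them (59.7%) moved by less than 0.3 log2 units. Increases reached further than decreases. Among higher genes 38 lay between 4-fold and 8-fold and 27 lay above, while among lower genes 8 lay between 4-fold and 8-fold and none above. The fold was a bound for 35 higher and 14 lower genes. The higher genes started from a median log2 intensity of 6.95 in the non-activated control and the lower genes from 8.27, against 8.02 for all measured genes. Of 607 detected probes with no gene name, 18 were higher and 15 were lower.

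**Figure D1:**
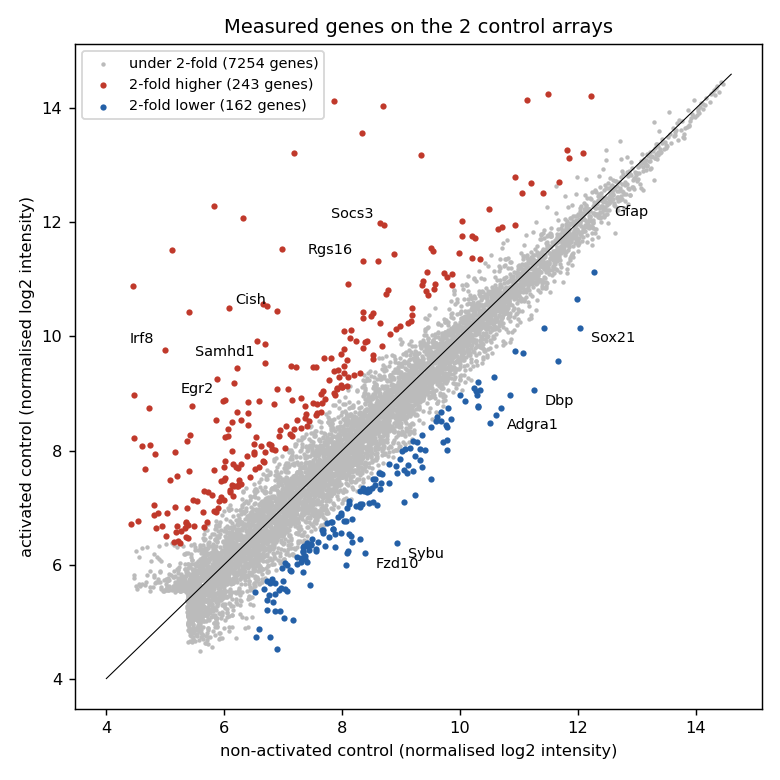
Normalised log2 intensity of 7659 measured genes in the non-activated control (horizontal) and the activated control (vertical), 1 point per gene and 1 array per axis. The 243 genes 2-fold higher (red) spread far above the line of equality, up to the top of the scale, while the 162 genes 2-fold lower (blue) stay in a narrow band below it; values under an array's lowest detected value are drawn as normalised.

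On the compound arrays the direction was kept by nearly all called genes, with E29 as the exception. At least 8 of the 10 compound arrays were on the same side as the activated control for 237 of 243 higher and all 162 lower genes. Without E29, all 9 others agreed in side for 222 higher and 161 lower genes. Of the 243 higher genes, E29 stood above the non-activated control for 45 and did not detect 116. Of the 162 lower genes, E29 stood below the non-activated control for 134. The other 9 compound arrays lay above it for 227 (E4) to 243 (E21 and E23) of the higher genes, and below it for 161 (E4) to 162 of the lower genes. The E29 array also detected the fewest probes, 9106 against 10093 to 10719 on the other 11; its part in these counts was not tested.

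**Figure D2:**
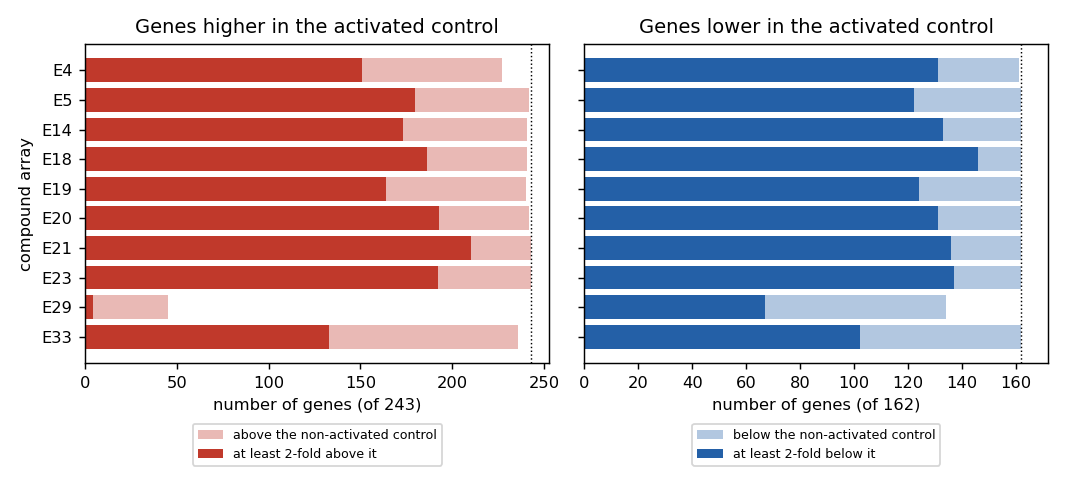
Number of the genes called in the activated control that lay on the same side of the non-activated control on each compound array (pale) and at least 2-fold away from it (dark), for 243 higher (left) and 162 lower genes (right); dotted lines mark all genes called. E29 was above the non-activated control for 45 higher genes, and the other compound arrays for 227 to 243; all bars share 1 non-activated array.

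The cells carried astrocyte genes before and after activation. Of 44 astrocyte genes with a probe 34 were measured, 1 was higher and 2 were lower. These shares of 2.94% and 5.88% compare with 3.17% and 2.12% of all measured genes, and the median change was -0.16. Gfap, the intermediate filament protein of astrocytes, stood at 12.43 without and 12.37 with activation. The glutamate transporter gene Slc1a3 stood at 13.33 and 13.38, the gap junction gene Gja1 at 13.07 and 13.09 and the water channel gene Aqp4 at 12.55 and 12.78. Aldh1l1 and Glul, widely used astrocyte markers, were detected but close to the limit of detection, and S100b was detected on none of the 12 arrays. Slc1a2, the other main glutamate transporter gene of astrocytes, was 1.97-fold higher and thus just under the 2-fold call, at 6.84 without and 7.81 with activation. It stood between 7.54 and 7.90 on the compound arrays, above the non-activated control on all 10. The 3 astrocyte genes past 2-fold were Thbs1, which encodes a matrix protein that promotes synapses, at 4.70-fold higher, and Sox9 and Tril, both lower and described below.

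Markers of other cells were few. Of 21 microglia markers with a probe 1 was measured, Sall1, which moved by -0.50 log2 units; Itgam, Aif1, Cx3cr1, Tmem119, Ptprc and the other 15 were below detection on both control arrays. Of 23 vascular and fibroblast markers 2 were measured, of 17 oligodendrocyte markers 4, of 22 neuron markers 7 and of 15 pluripotency markers 1. None of these 15 measured genes was called. The summed linear intensity of the vascular and fibroblast list was 4612 without and 7633 with activation and 2397 to 6503 on the compound arrays, mostly from the smooth muscle actin gene Acta2 (0.81 log2 units); its part in other results was not tested. The same sum over all 21 microglia markers with a probe, 20 of them not detected on either control array, was 648 and 593. All 7 measured neuron markers lay slightly above the non-activated control (median 0.23), among them Map2 at 11.24 and 11.25. All 4 measured oligodendrocyte markers lay below it (median -0.31). Over all 17 with a probe, 13 of them not detected on either control array, the summed linear intensity was 5527 without and 4146 with activation. On the compound arrays that sum was 3674 to 7029. The part of these markers in the lower Sox and neural factors was not tested. Of 17 measured neural stem cell genes 15 were not called, among them the filament gene Nes at 10.82 and 10.97. The cell cycle inhibitor gene Cdkn2b was 2.37-fold higher and Sox2 was 2.17-fold lower. That is 5.88% each, against 3.17% higher and 2.12% lower of all measured genes.

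Some sensors of bacteria and the adaptor Myd88 were higher, and the receptor of LPS was not detected. Of 16 measured innate immune sensors and adaptors, 4 were higher and none was lower (25.0% higher, against 3.17% of all measured genes). Tlr2, which senses bacterial lipoproteins, stood at 6.73 in the non-activated and 10.54 in the activated control, a 14.0-fold difference. Its compound arrays had a lowest value of 4.93 (not detected), a median of 9.81 and a highest of 10.48. E29 was the low array and lay below the non-activated control, and the other 9 lay at least at 9.39. Tlr4, the receptor of LPS, was not detected on any of the 12 arrays (4.64 and 4.46 on the control arrays, both under their lowest detected values), so no change of it can be given. Its partner Cd14 was 1.88-fold higher, at 9.47 and 10.38. Ly96, named here after its values were seen, stood at 7.12 and 7.07.

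Nod1 stood at 7.56 without and 9.47 with activation, 3.75-fold higher, and its compound arrays ran from 6.28 through a median of 8.98 to 9.35. The low array was again E29. Myd88 stood at 9.77 and 11.04, 2.42-fold higher, with compound arrays from 9.37 through 10.57 to 11.02. Both genes were thus above the non-activated control on 9 of 10 compound arrays and highest in the activated control. Nlrc5, which activates genes of antigen presentation, was at least 3.17-fold higher but was detected on 6 compound arrays only. The adaptor genes Mavs and Traf6, of the RNA-sensing and Toll-like receptor routes, moved by -0.33 and 0.24 log2 units and were not called.

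Several cytokine receptors were higher, while neither chain of the interferon-gamma receptor was called. Of 23 measured members, 5 were higher and none was lower (21.7% higher, against 3.17% of all measured genes). Ifngr1, the ligand-binding chain for interferon-gamma, stood at 7.97 and 7.95. Its signalling partner Ifngr2 stood at 7.53 and 7.72. Il1rap, the shared chain of interleukin-1 family receptors, stood at 5.82 without and 7.66 with activation, 3.58-fold higher. On the compound arrays Il1rap ran from 5.52 (E29) through a median of 7.48 to 7.92. Lifr, the receptor for leukaemia inhibitory factor, was below detection in the non-activated control and at least 2.60-fold higher, at 6.75 in the activated control and 6.89 at the compound median. The death receptor gene Fas was 2.19-fold higher, at 12.08 and 13.22. Ifnar2, a chain of the type I interferon receptor, was 2.09-fold higher in the activated control, but only 6 of 10 compound arrays lay above the non-activated control (median 6.29 against 6.14). Il15ra was at least 2.02-fold higher, and Osmr, the oncostatin M receptor gene, was 1.68-fold higher without a call.

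G protein-coupled receptors moved the other way. Of 12 measured, none was higher and 3 were lower (25.0%, against 2.12% of all measured genes), with a median of -0.28, which was -0.17 when scaled to reference genes and -0.18 without background correction. Adgra1, an adhesion-type receptor, had the largest decrease of any receptor on this list, 3.97-fold, from 10.62 without to 8.63 with activation. Its compound arrays ran from 7.98 through 8.53 to 9.30. All 10 lay more than 1 log2 unit below the non-activated control. Gprc5b was 2.39-fold lower, at 8.03 and 6.77, with compound arrays from 6.98 to 8.58. The value above the non-activated control was that of E29. P2ry1, a receptor for ADP that raises calcium in astrocytes, was 2.23-fold lower at 8.50 and 7.35, and its compound arrays all lay between 6.54 and 7.60. The endothelin receptor gene Ednrb, the orphan receptor gene Gpr37l1 and the thrombin receptor gene F2r moved by -0.25, -0.33 and 0.29 log2 units. None of 18 measured receptor tyrosine kinases was called, among them Ntrk2 (12.48 and 12.35), Axl (11.57 and 11.42) and Ddr1 (12.56 and 12.64). None of 24 measured genes on the ion channel and gap junction list was called either. That list did not hold the magnesium channel gene Trpm6, which was lower and is given with the largest decreases.

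Among developmental signalling lists the share of calls was 18.5% for TGF-beta and BMP, 9.52% for Wnt and 5.88% for Notch. Of all measured genes 5.29% were called. Of 21 measured Wnt genes 2 were lower (9.52%, against 2.12% of all measured genes) and none was higher. The lower ones were Fzd10, a Wnt receptor, at 8.38 and 6.20, and the ligand Wnt7b at 7.56 and 6.27. The compound arrays of Fzd10 ran from 5.24 to 7.35 and those of Wnt7b from 5.29 to 6.39, so that none reached the non-activated control. Wnt5a was 1.96-fold lower and not called. In the TGF-beta and BMP list 3 of 27 were higher and 2 were lower (11.1% and 7.41%, against 3.17% and 2.12% of all measured genes). The higher ones all encode proteins that restrain the pathway. Fst, which encodes the activin-binding protein follistatin, was at least 4.56-fold higher. Smurf1, a ubiquitin ligase for Smad proteins, was at least 3.11-fold higher, and the corepressor gene Tgif1 was 2.08-fold higher. Inhbb, which encodes a subunit of activin, was 2.96-fold lower, at 9.20 and 7.64, and all compound arrays lay between 7.16 and 7.99. The other lower gene, Id4, is given with the neural factors. Among 17 Notch pathway genes 1 was called (5.88%, near the 5.29% of all measured genes), the ubiquitin ligase gene Dtx4, at 2.50-fold lower. Notch1 (9.18 and 9.41) and its target Hes1 (7.17 and 7.47) were not called.

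**Figure D3:**
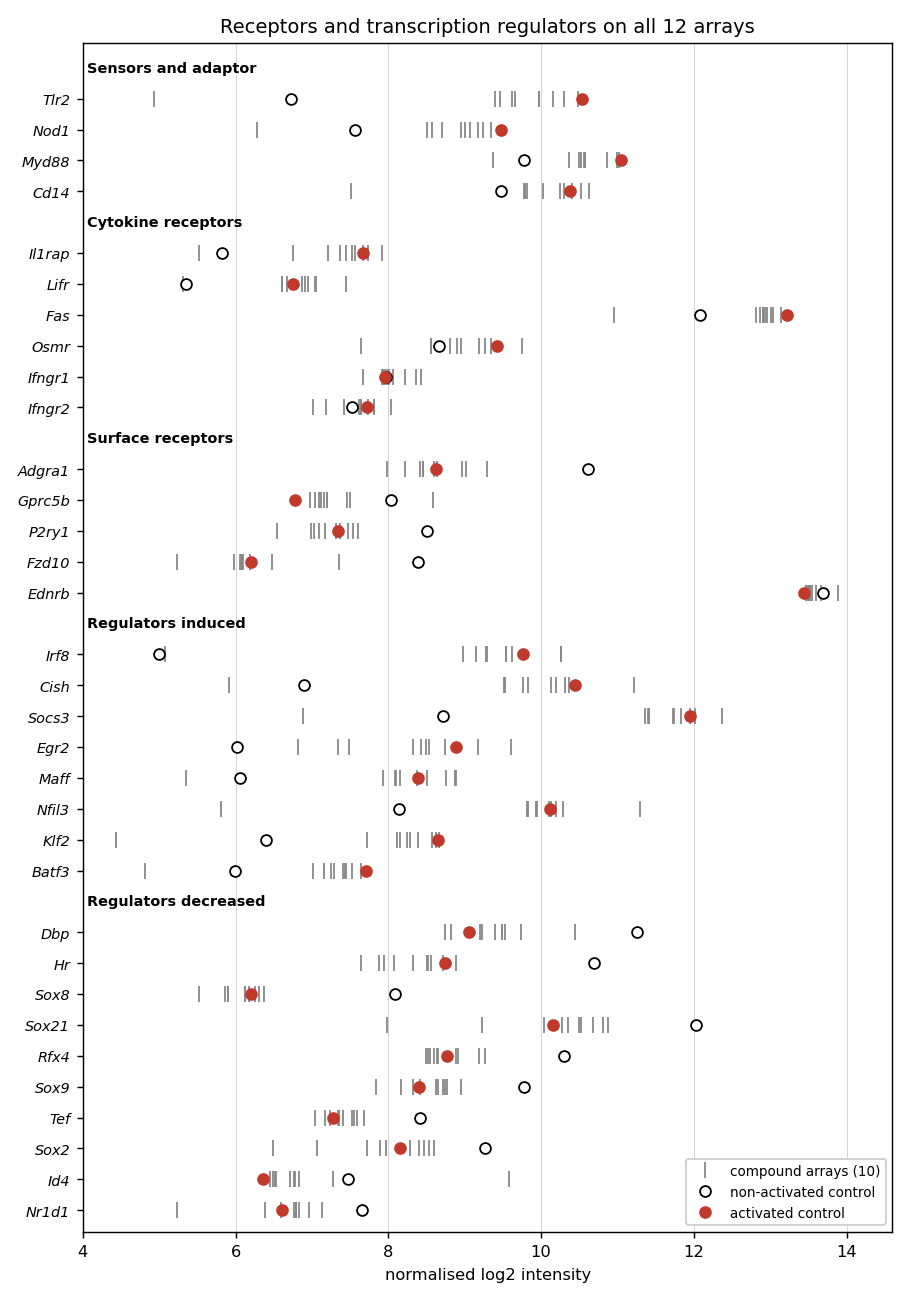
Normalised log2 intensity of named receptors and transcription regulators on all 12 arrays, with open circles for the non-activated control, red circles for the activated control and grey ticks for the 10 compound arrays. Tlr2 is at 6.73 and 10.54 and Adgra1 at 10.62 and 8.63 on the control arrays; for most induced genes the single tick at or left of the open circle is E29.

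Transcription regulators were higher in the STAT, NF-kB, AP-1 and KLF families. Of 19 measured interferon regulatory factors, STAT factors and their inhibitors, 10 were higher and none was lower (52.6%, against 3.17% of all measured genes). Irf8 was not detected without activation and stood at 9.76 with it, at least 20.9-fold higher. On the compound arrays it ran from 5.07, not detected with E29, through 9.41 to 10.26. The feedback inhibitors of cytokine receptors were among the largest changes. Cish stood at 6.89 and 10.45 (11.8-fold), with compound arrays from 5.91 through 9.98 to 11.22. Socs3 stood at 8.71 and 11.96 (9.48-fold), with compound arrays from 6.88 through 11.74 to 12.37. In both genes E29 was the low array and E4 the high one. Stat2 was 6.38-fold higher and Irf9 2.75-fold, which together form the factor of the type I interferon response. Batf3, an AP-1 type factor, was 3.28-fold higher, and Socs1 was at least 2.88-fold higher. Stat3 moved by 0.52 log2 units and Irf3 by -0.64, with no call.

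Of 14 measured NF-kB genes 7 were higher and 1 was lower. Most of the higher ones encode proteins that restrain the pathway or its products, among them Nfkbia (2.38-fold), Nfkbie (2.67-fold), Tnip1 (3.21-fold) and Tnfaip3. The subunit genes Relb and Nfkb2 were 2.57-fold and 2.26-fold higher, and Rela stood at 10.98 and 11.24. Traf2, an adaptor of tumour necrosis factor receptors, was the lower gene, at 7.59 and 6.39, and all 10 compound arrays lay at or below 6.20.

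Among AP-1, ATF and EGR genes 7 of 23 were higher and none was lower (30.4% higher, against 3.17% of all measured genes). Egr2 stood at 6.02 and 8.88, 7.29-fold higher, and on the compound arrays from 6.82 through 8.46 to 9.61, so all 10 were above the non-activated control. Maff, a small Maf protein, stood at 6.06 and 8.38, a log2 change of 2.32. The cyclic AMP-responsive gene Crem and the stress factor Atf3 were both over 4-fold higher, Jun was 3.27-fold and Junb 2.15-fold. Myc was not detected without activation, stood at 6.14 with it and was not called. In the KLF and C/EBP list Klf2 (4.75-fold), Klf6 (3.96-fold) and Klf5 (2.61-fold) were higher of 12 measured (25.0%). Cebpb stood at 11.97 and 12.50 without a call. The ETS factor Ets1 was 2.72-fold higher, the only call among 11 ETS genes (9.09%). None of 8 measured forkhead factor genes was called.

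Several factors of neural identity were lower. Of 32 measured Sox and neural factors, none was higher and 7 were lower (21.9%, against 2.12% of all measured genes), and the list median was -0.41. Sox21 stood at 12.03 without and 10.15 with activation, 3.68-fold lower, with compound arrays from 7.98 through 10.43 to 10.88. Sox8, also 3.68-fold lower, stood at 8.08 and 6.20, and its compound arrays lay between 5.53 and 6.38. In neither gene did any activated array reach the non-activated control. Sox9, which directs glial fate, stood at 9.78 and 8.40, with compound arrays from 7.84 through 8.64 to 8.95. Sox2, a factor of neural stem cells, stood at 9.27 and 8.15, with compound arrays from 6.48 through 8.13 to 8.60; without background correction it was -0.91 and no longer called. Rfx4, a factor of neural tube development and cilia, was 2.90-fold lower, from 10.31 to 8.77. Nfic and Id4 were 2.12-fold and 2.15-fold lower, and in each 1 compound array stood above the non-activated control. For Id4 that array was E29, at 9.58 against 7.47. The relatives of Id4 were not lower: Id1, Id2 and Id3, which also block basic helix-loop-helix factors, moved by 0.45, 0.21 and 0.80. The nuclear factor gene Nfix (-0.28), the orphan receptor gene Nr2f1 (-0.62) and Tcf4 (-0.50) were not called.

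Clock output genes were lower, and a repressor that binds the same sequence as their products was higher. Of 16 measured clock genes 3 were lower and 1 was higher (18.8% and 6.25%, against 2.12% and 3.17% of all measured genes). Dbp and Tef encode activators that bind the D-box sequence, to which Nfil3 binds as a repressor. Dbp stood at 11.26 and 9.06, 4.59-fold lower, with compound arrays from 8.74 through 9.44 to 10.45. Tef stood at 8.42 and 7.28, 2.20-fold lower, and its compound arrays lay between 7.04 and 7.69. Nfil3 stood at 8.14 and 10.11, 3.91-fold higher, with compound arrays from 5.81 through 10.03 to 11.29. All 11 activated arrays were below the non-activated control for Dbp and Tef, and all but E29 were above it for Nfil3. Nr1d1, the haem-binding repressor of the clock, was 2.07-fold lower at 7.66 and 6.61. The core gene Clock (9.56 and 9.57) and Per1 (7.29 and 7.19) were not called, and Per2 was 1.50-fold lower. The time of day of harvest is not given in the labels, and its part in these values was not tested.

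Of 9 nuclear receptors and cofactors 1 was called (11.1%, against 5.29% of all measured genes). The list median was -0.56, and it was -0.29 with probe means and -0.34 without background correction. Hr, which encodes the corepressor hairless, stood at 10.69 and 8.74, 3.85-fold lower, and its compound arrays ran from 7.65 through 8.41 to 8.89. Esrra (-0.74), Rxrb (-0.61) and Nr2f6 (-0.42) were below the non-activated control on all 10 compound arrays, with no call. Chromatin regulators had 1 call among 31, Pml at 2.21-fold higher (3.23%, near the 3.17% higher of all measured genes). Other regulators of transcription stood among the 40 largest decreases. Hexim1, an inhibitor of the elongation kinase P-TEFb, was 3.64-fold lower, from 10.84 to 8.98, and no compound array exceeded 8.82. Kmt5c, a methyltransferase of histone H4, was 3.62-fold lower, and Bcl7a, a subunit of SWI/SNF remodelling complexes, 3.54-fold. Bcl9l, a coactivator of beta-catenin, was 2.95-fold lower.

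Of 21 genes of messenger RNA decay, editing and translation control 3 were higher and none was lower (14.3%, against 3.17% of all measured genes). Zfp36, which destabilises cytokine messages, was 4.58-fold higher, the endonuclease gene Zc3h12a 2.81-fold and the editing enzyme gene Adar 4.75-fold.

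Called genes of MAP kinase feedback, G protein signalling and stress kinases were higher, apart from 1 kinase gene. Of 17 genes of MAP kinase feedback 5 were higher and none was lower (29.4%, against 3.17% of all measured genes). They were the phosphatase genes Dusp1 (3.60-fold), Dusp10 (3.11-fold), Dusp3 (2.31-fold) and Dusp4 (at least 2.01-fold), and Errfi1, an inhibitor of the epidermal growth factor receptor, at 3.24-fold. Rgs16, which shortens G protein signals, stood at 8.36 and 11.32, 7.77-fold higher, with compound arrays from 6.48 through 10.96 to 11.37. The phosphodiesterase genes Pde4a and Pde10a were at least 2.80-fold and 2.07-fold higher. Of 28 stress and immune kinases 5 were higher and 1 was lower (17.9% and 3.57%, against 3.17% and 2.12% of all measured genes). Plk2 (5.40-fold), Mlkl (at least 4.90-fold), Map3k8 (3.81-fold), Stk40 (2.27-fold) and Sgk1 (2.03-fold) were higher. Aatk, a kinase gene expressed in the nervous system, was 3.83-fold lower, at 9.04 and 7.10, and its compound arrays lay between 6.50 and 7.42.

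Few genes of central energy metabolism were called. None of 59 measured respiratory chain genes was called (median -0.11, from -0.43 to 0.47), and none of 33 genes of the citrate cycle and mitochondrial import of fuel (median -0.04). Of 32 glycolysis, pentose and glycogen genes 1 was higher and 1 was lower (3.12% each, against 3.17% and 2.12% of all measured genes). The higher one was Hk2, an inducible hexokinase, which stood at 10.20 and 11.76, 2.94-fold higher, with compound arrays from 7.48 through 11.51 to 11.77. The lower one was Ppp1r3c, which brings a phosphatase to glycogen and promotes its synthesis, at 12.27 and 11.12, with compound arrays from 8.12 through 10.84 to 11.24. For Hk2 all activated arrays but E29 stood above the non-activated control, and for Ppp1r3c all 11 stood below it. Gapdh (13.40 and 13.24), Tpi1 (12.42 and 12.27) and Aldoc (12.91 and 12.83) were not called.

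Of 49 solute carriers on the list 3 were higher and 1 was lower (6.12% and 2.04%, against 3.17% and 2.12% of all measured genes), and of all 153 measured solute carriers 4 were higher and 3 were lower, so their share of calls was near that of all genes. Slc2a6, a glucose transporter family member, stood at 6.13 and 8.49, 5.13-fold higher. Its compound arrays were spread widely, from 6.18 through 7.28 to 8.68, all above the non-activated control. Slc2a1, the main glucose transporter of the blood-brain barrier and of astrocytes, was 1.49-fold lower and not called. The myo-inositol transporter gene Slc5a3 was 3.08-fold higher, and Slc25a25, a mitochondrial carrier of ATP-magnesium, 2.12-fold. Slc38a2, a neutral amino acid transporter, was 2.28-fold lower, at 10.93 and 9.74, and all compound arrays lay between 8.90 and 10.06.

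Nucleotide, NAD and tryptophan genes were the metabolic list with the most increases, 7 of 33 with none lower. That is 21.2%, against 3.17% of all measured genes, although the list median was 0.09. Samhd1, which degrades deoxynucleotides and restricts viruses, stood at 6.69 and 9.53, 7.18-fold higher. Its compound arrays ran from 7.01 through 8.87 to 9.57, all above the non-activated control. Wars, which charges transfer RNA with tryptophan, was 3.01-fold higher at 9.38 and 10.97, and Nampt, the rate-limiting enzyme of NAD salvage, 2.76-fold higher at 6.51 and 7.98. Both were above the non-activated control on all 10 compound arrays. Pyrimidine enzymes made up the rest. Ctps, which makes CTP, stood at 11.85 and 13.13, 2.42-fold higher. Uck2, a uridine-cytidine kinase, was 2.35-fold higher, Umps, which completes uridylate synthesis, 2.19-fold, and the mitochondrial nucleotide kinase gene Cmpk2 2.05-fold. Ctps, Uck2 and Umps were above the non-activated control on 9 of 10 compound arrays, E29 being the exception.

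Sterol genes lay mostly above the non-activated control: 3 of 20 were called, all higher (15.0%, against 3.17% of all measured genes), and 17 of 20 lay above 0. The median was 0.38, against -0.03 for all measured genes and 0.19 for reference genes, of which 10 of 13 lay above 0. Idi1, an isomerase of isoprenoid synthesis, stood at 5.54 and 7.11, with compound arrays from 5.21 through 6.74 to 7.15. Cyp51 and Insig1 were the others. Hmgcs1, which makes the precursor of mevalonate, stood at 13.55 and 13.93, and Sqle at 11.95 and 11.74, with no call. Of 52 lipid genes 3 were higher and 2 were lower (5.77% and 3.85%), near the 3.17% and 2.12% of all measured genes. Sgms2, a sphingomyelin synthase, was 2.88-fold higher, Acsl5, which activates fatty acids, 2.23-fold and the acyltransferase gene Gpat3 2.09-fold. Lpin1, a phosphatidate phosphatase and coactivator, stood at 8.17 and 6.40, 3.41-fold lower, with compound arrays from 5.98 through 6.66 to 7.34. Gpam, the mitochondrial acyltransferase that opens glycerolipid synthesis, was 2.27-fold lower at 7.30 and 6.11. Thus Gpat3 and Gpam, which catalyse the same step in different membranes, were called in opposite directions. No member of the ABC transporter and lipoprotein list (22 measured) was called, Apoe standing at 11.78 and 11.60.

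Of 15 eicosanoid, nitric oxide and biopterin genes 1 was called (6.67%, near the 5.29% of all measured genes). Gch1, the first enzyme of tetrahydrobiopterin synthesis, stood at 9.46 and 10.73, 2.41-fold higher, with compound arrays from 7.22 through 10.73 to 11.08. Ptgs2, the inducible cyclooxygenase, was detected on none of the 12 arrays. Nos2, the inducible nitric oxide synthase that uses biopterin, was below detection on both control arrays, at 4.75 and 5.46. In the activated control its detection p-value of 0.011 was just short of the limit of 0.01, and it was detected on 1 of the 12 arrays. Of 41 redox and iron genes 2 were higher and 1 was lower. These shares of 4.88% and 2.44% were near the 3.17% and 2.12% of all measured genes. The mitochondrial dismutase gene Sod2 was 2.04-fold higher, at 11.67 and 12.70, and the oxygen-regulated factor gene Hif1a 2.91-fold, at 7.86 and 9.40. Sesn1, a stress-responsive inhibitor of growth signalling, was 2.34-fold lower. Lcn2, an iron-carrier protein of reactive astrocytes, stood at 11.91 and 12.30 with compound arrays from 10.50 to 12.02, and 1 of 10 lay above the non-activated control. Amino acid and one-carbon genes (30 measured) and retinoid, steroid and xenobiotic genes (22 measured) had no call.

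**Figure D4:**
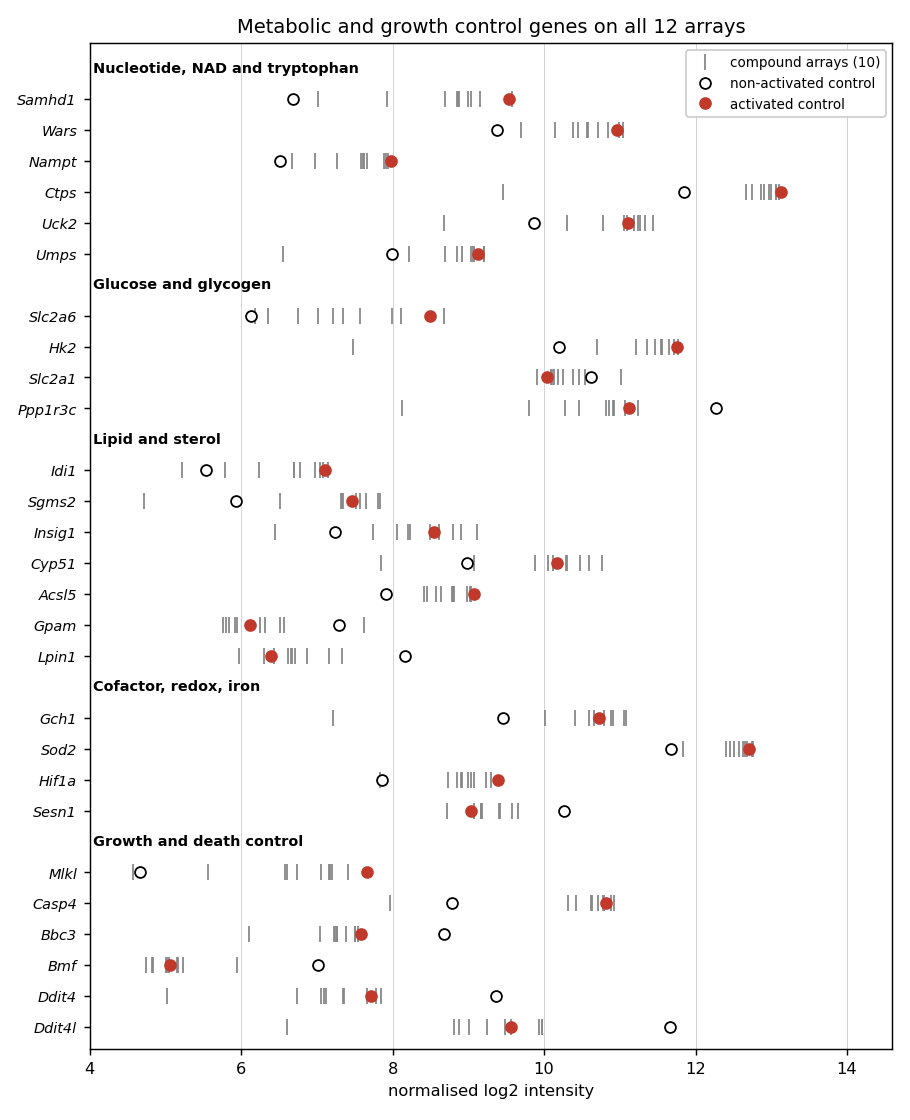
Normalised log2 intensity of named genes of metabolism and of growth and death control on all 12 arrays, with open circles for the non-activated control, red circles for the activated control and grey ticks for the 10 compound arrays. Samhd1 is at 6.69 and 9.53 and Lpin1 at 8.17 and 6.40 on the control arrays; Slc2a6 has widely spread ticks, between 6.18 and 8.68.

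Of 34 cell death genes 4 were higher and 4 were lower (11.8% each, against 3.17% and 2.12% of all measured genes). The median change of the list was -0.16. Ddit4 and Ddit4l encode inhibitors of the growth kinase complex mTORC1. Ddit4 stood at 9.36 and 7.72, 3.12-fold lower, with compound arrays from 5.02 through 7.23 to 7.84. Ddit4l stood at 11.67 and 9.56, 4.31-fold lower, with compound arrays from 6.61 through 9.37 to 9.98. For both, all 11 activated arrays lay below the non-activated control. Bmf and Bbc3, of the BH3-only group that triggers apoptosis, were at least 2.83-fold and 2.14-fold lower. The higher genes were Casp4, an inflammatory caspase that binds LPS inside cells, at 8.78 and 10.82 (4.10-fold), Mlkl, the effector of necroptosis, at least 4.90-fold, Gadd45b at 2.93-fold and Phlda1 at 3.34-fold. Mcl1, an inhibitor of apoptosis, stood at 11.65 and 11.41.

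Among secreted and matrix genes more calls were higher than lower, and most members were not called. Of 26 growth factor genes 6 were higher and 1 was lower (23.1% and 3.85%, against 3.17% and 2.12% of all measured genes). Pdgfb, a platelet-derived growth factor chain, was 3.93-fold higher, at 8.35 and 10.32, while Pdgfa stood at 11.28 and 11.19. Nrg1 was 2.90-fold higher, the peptide precursor genes Pdyn and Edn1 at least 2.47-fold and at least 2.42-fold, Igfbp3 2.21-fold and Hbegf 2.18-fold. Angpt2, a ligand of the endothelial receptor Tie2, was 2.47-fold lower. Of 26 matrix genes 5 were higher and 1 was lower (19.2% and 3.85%). Ccn1, a matrix-associated signalling protein, stood at 6.66 and 10.57, 15.1-fold higher, with compound arrays from 4.78 through 10.79 to 11.70. Adamts1, a protease that cleaves proteoglycans, was 4.53-fold higher, Ccn2 3.33-fold and Adamts4 2.22-fold, the last above the non-activated control on 7 of 10 compound arrays. Timp4, an inhibitor of metalloproteinases, was 2.74-fold lower. Of 21 guidance genes 1 was higher, Sema7a (at least 2.89-fold), and 1 was lower, Sema6d (2.81-fold). These shares of 4.76% each were near the 3.17% and 2.12% of all measured genes. Of 10 complement and coagulation genes C1s1 (at least 2.56-fold), the urokinase receptor gene Plaur (2.28-fold) and the inhibitor gene Serping1 (2.23-fold) were higher, while Clu and Serpina3n moved by -0.05 and -0.15.

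Interferon and cytokine response lists are given here by their counts. Of 14 interferon-induced GTPases 13 were higher (median 3.05), of 26 type I interferon genes 13 (median 1.00), of 18 antigen presentation genes 8 (median 0.82) and of 20 chemokines and cytokines 9 (median 0.69). None was lower in these 4 lists. On the median of the 10 compound arrays the type I interferon median was 0.67 and that of chemokines and cytokines 0.32. With undetected values not raised to the lowest detected value, the chemokine and cytokine median was 1.21 over the same members. Outside these 4 lists, Clec2d, a ligand of a natural killer cell receptor, was 9.31-fold higher, at 6.22 and 9.44. Of 25 TRIM and ubiquitin genes 3 were higher (12.0%). Among them were the antibody receptor gene Trim21 at 5.10-fold and Usp18, which removes the ubiquitin-like modifier Isg15, at 5.52-fold. Of 10 immune surface ligands and adhesion molecules 3 were higher, with Vcam1, which binds leukocyte integrins, at 3.30-fold. Of 30 cytoskeleton genes 3 were higher (10.0%, against 3.17% of all measured genes). They were Amotl2 (4.12-fold), the calponin gene Cnn2 (2.43-fold) and Fhl2 (2.20-fold). Of 20 genes of endoplasmic reticulum stress 1 was called, Atf3 (5.0%, near the 5.29% of all measured genes), and of 4 hedgehog genes none.

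**Figure D5:**
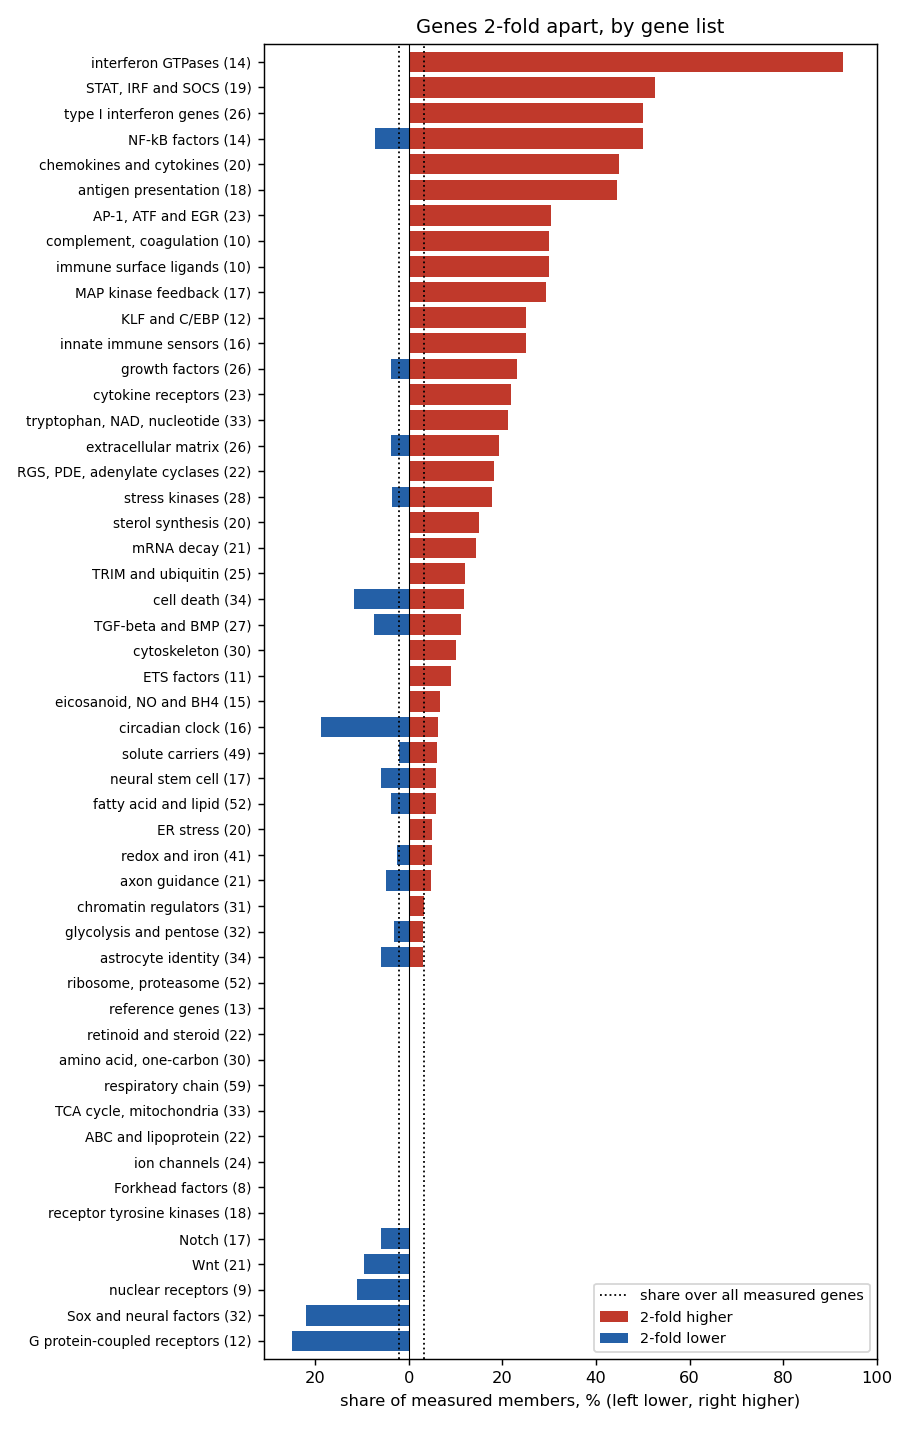
Share of the measured members of each gene list that were 2-fold higher (right) or lower (left) in the activated control, with the number measured in brackets and dotted lines at 3.17% and 2.12%, the shares over all measured genes. Interferon GTPases reach 92.9% higher, G protein-coupled receptors 25.0% and Sox and neural factors 21.9% lower, and the respiratory chain has no call among 59 genes; lists with under 8 measured members and 1 other list are left out, and lists overlap.

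The largest decrease of all was that of Sybu, which encodes syntabulin, a linker of cargo to the motor kinesin. It stood at 8.94 without and 6.37 with activation, 5.91-fold lower, and its compound arrays ran from 5.93 through 6.17 to 7.64. All 11 activated arrays were thus below the non-activated control, E29 being the nearest to it. Transport and sorting genes also included Vps37b, a subunit of the ESCRT-I complex, at 4.02-fold lower, and Snph, which anchors mitochondria in axons, at 3.17-fold lower. Tril, a partner of Toll-like receptors 3 and 4 expressed in glia, stood at 10.31 and 8.78, 2.87-fold lower, with compound arrays from 8.24 through 8.80 to 9.88. Tril therefore went against Tlr2 and Cd14, with all 11 activated arrays below the non-activated control. Mknk2, a kinase of the cap-binding protein, was 2.71-fold lower and the magnesium channel gene Trpm6 2.99-fold. The decreases were less covered by the lists than the increases, with 35 of 162 lower genes in at least 1 list against 154 of 243 higher genes.

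Reference genes and genes of the ribosome and proteasome were not called. None of 13 and none of 52 passed 2-fold, with medians of 0.19 and -0.02. Actb stood at 13.86 and 13.96 and Gapdh moved by -0.17, while B2m, which is also an antigen presentation gene, was 1.74-fold higher.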

How the data were processed

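Per the labels' protocols, 400 ng of RNA was amplified (12 h of in vitro transcription), labelled with biotin and read on 1-colour Illumina arrays. The authors deposited a non-normalised table of mean bead intensity per probe and array, per the file headers, and beside each intensity a deposited detection p-value. The submitters' processing notes name GenomeStudio 2010.3; any background subtraction there is not given in the sources used. A second deposited table of processed intensity served as an alternative. Its 12 columns each followed their own array best and were linear, with 45.1% to 45.2% of probes at a floor of 10 and medians of 14.9 to 15.0; its centring and normalisation are not known.

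Here intensities were corrected, quantile-normalised and log2-transformed over all 12 arrays with neqc of limma 3.58.1 (R 4.3.3, offset 16, background from the detection p-values). Python 3.11.15 with pandas 2.3.3, numpy 2.4.6 and matplotlib 3.10.9 did the rest, and the calls were tested on simulated data. Of 25697 probes 23978 had 1 symbol and 1719 none in the platform annotation; symbols were updated through RefSeq. Each of 16593 genes was represented by its brightest probe (4777 had several). Other detected probes of called genes moved the same way in 91 of 96 cases for higher and 53 of 61 for lower genes. A gene was measured at a detection p-value under 0.01 on at least 1 control array. Array medians of intensity ran from 117 to 127, and precision is limited by signal over background and by the number of arrays. A compound array that did not detect a gene never counted as above the control.

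The 58 lists (2359 genes, 2067 with a probe), the motifs and the genes were chosen with earlier results of these data known. Named were the 30 largest increases and 40 largest decreases on the same side on at least 8 compound arrays, per list up to 8 called genes a direction and the 3 brightest uncalled ones, and a looked-up set of astrocyte, receptor, factor and enzyme genes; 1 list and some genes are not reported here; Gm and LOC symbols and those ending in Rik were counted only. Alternatives were 2 scalings, no background correction, an offset of 50, other detection filters, other activated arrays, probe means and the authors' table.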

Additional observations from a re-analysis of the deposited data

How the results depend on the processing

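No paired analysis was possible because each group is 1 array and no replicate numbers are shared. Across 11 alternatives 132 to 279 genes were higher and 50 to 219 were lower. Without background correction 132 were higher and 50 lower (72.5% higher), an offset of 50 left 88 lower, and the median of the 10 compound arrays in place of the activated control gave 49.3% higher (187 higher, 192 lower). The cause was not tested. The 201 called genes that could be named kept their direction under all 11 alternatives, which the naming rule partly fixes, since 3 alternatives use the compound arrays it drew on, and 124 (no background correction) to 201 of them stayed 2-fold. Among lists with at least 5 measured genes, the 15 medians past 0.3 log2 units in size kept their sign. No level can be given below 5.52 log2 units in the activated control. The fold was a bound for 35 of 243 higher and 14 of 162 lower genes, and the part of this limit in the calls was not tested. With 1 array per group and 1 shared non-activated array, none of these settings measures the spread between cultures.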

Other observations

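Several gene families, grouped by symbol after their values were seen and therefore without a test, held more than 1 called gene in 1 direction; of all measured genes 3.17% were higher and 2.12% were lower. Of 7 measured PARP genes 4 were higher: beside Parp14 and Parp9 these were Parp3, at 6.50 and 8.11 in the non-activated and activated control, and Parp12, at 6.51 and 7.95. Both stood above the non-activated control on all 10 compound arrays. Of 27 measured ribosome assembly genes (Rrp, Noc, Nop, Utp and Nol symbols) 3 were higher and none was lower, with a median of 0.34: Rrp12 (3.86-fold), Noc4l (2.87-fold) and Rrp9 (2.56-fold). The 70 measured mitochondrial ribosomal protein genes had no call.

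Of 11 measured carbohydrate sulfotransferases 3 were higher and 1 was lower. Hs3st1, which sulfates heparan sulfate, stood at 8.61 and 11.32 (6.53-fold), and Chst11 and Chst15, which act on chondroitin sulfate, were 2.84-fold and 2.18-fold higher. Of 9 sialyltransferases 3 were lower and none was higher. St3gal5, which makes the ganglioside GM3, stood at 8.18 and 6.80, St6gal1 at 8.36 and 7.29, and St8sia2, which makes polysialic acid, at 6.78 and 5.68; with E29 St8sia2 was above the non-activated control. Of 11 Integrator complex genes 3 were lower, Ints13 (2.25-fold), Ints6l (2.14-fold) and Ints3 (2.12-fold), with a median of -0.30. Of 152 zinc finger genes with Zfp symbols 8 were lower and 1 was higher, Zfp36.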
